A study of Mus musculus with 24 samples.

Results

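The insulin, IGF and PI3K-Akt signaling genes examined here were 8 genes named for their place in the pathway: the receptors Insr and Igf1r, the adaptors Irs1 and Irs2, the receptor inhibitor Grb10, the lipid kinase subunit Pik3ca, and the kinases Akt1 and Akt2. Each was found by its symbol among 47643 gene identifiers, and all 8 had enough counts to be tested among 17178 genes. The study examined nociceptors, the neurons that detect painful stimuli, after deletion of Tsc2, a component of the complex that restrains the growth kinase complex mTORC1. RNA was sequenced from pools of 100 GFP-positive cells sorted by flow cytometry from the L4 dorsal root ganglion (DRG), with 3 pools per mouse and 4 mice in each genotype, Control and Nav-Tsc2. Both genotypes carried Nav1.8-Cre and the green reporter Rosa26-ZsGreen. At the Tsc2 locus, Control mice were flox/+ and Nav-Tsc2 mice (labelled Tsc2 cKO) were flox/null, so Control neurons kept an intact copy, and the null allele of Nav-Tsc2 mice was present in all their cells, not in neurons alone. All mice were 8 to 9 weeks old on a mixed C57BL/6 and AJ background, with 2 males (replicates 1 and 2) and 2 females (replicates 3 and 4) per genotype. The ganglia lay on the side opposite a sciatic nerve crush performed 3 d before, so neither genotype was free of injury elsewhere. Nav1.8-Cre recombines in most nociceptors and in some myelinated sensory neurons, so the sorted pools were mixtures of neuron types.

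Insulin and the insulin-like growth factors bind receptor tyrosine kinases that phosphorylate IRS adaptors, which recruit PI3K. The lipid that PI3K makes brings Akt to the membrane, and active Akt inhibits TSC2 and keeps FoxO transcription factors out of the nucleus. Once mTORC1 is active it feeds back on the start of the pathway, through S6 kinase, which marks IRS1 for degradation, and through Grb10, an adaptor that binds and inhibits both receptors and that mTORC1 stabilizes. Much of this feedback acts on proteins, whereas the values below are mRNA levels. In sensory neurons the pathway is known for promoting survival and axon growth.

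Sequences just upstream of annotated starts are shown for Grb10, Akt1 and Igf1r, the members whose level differed between genotypes, so that their starts can be compared. RefSeq windows on GRCm38.p6 matched 7 of the 8 members, all but Insr. Each window is the 250 bases before a RefSeq start, written 5′ to 3′ on the strand of the gene, with capitals marking the letters GGGCGG (the GC box core) or TGTTTAC (a FoxO-type motif) on either strand.
Grb10, chr11:12027972-12028221, minus strand, within an intron of the gene: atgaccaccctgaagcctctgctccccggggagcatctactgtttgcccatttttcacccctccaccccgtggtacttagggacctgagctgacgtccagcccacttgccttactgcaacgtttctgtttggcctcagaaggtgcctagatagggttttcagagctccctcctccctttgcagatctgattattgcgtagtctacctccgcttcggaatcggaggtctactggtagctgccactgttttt
Grb10, chr11:12037421-12037670, minus strand, within an intron of a longer transcript: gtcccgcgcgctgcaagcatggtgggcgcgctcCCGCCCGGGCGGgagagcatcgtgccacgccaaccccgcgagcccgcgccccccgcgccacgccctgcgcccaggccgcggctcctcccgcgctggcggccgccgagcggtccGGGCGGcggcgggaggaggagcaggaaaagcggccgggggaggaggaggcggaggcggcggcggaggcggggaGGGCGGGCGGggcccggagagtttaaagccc
Akt1, chr12:112674277-112674526, minus strand, within an intron of a longer transcript: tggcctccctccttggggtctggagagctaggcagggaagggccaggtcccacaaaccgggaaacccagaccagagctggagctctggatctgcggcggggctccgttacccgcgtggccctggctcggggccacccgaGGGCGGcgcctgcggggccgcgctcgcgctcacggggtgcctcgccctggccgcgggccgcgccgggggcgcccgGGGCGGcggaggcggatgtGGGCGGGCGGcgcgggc
Akt1, chr12:112674885-112675134, minus strand, upstream of the annotated gene: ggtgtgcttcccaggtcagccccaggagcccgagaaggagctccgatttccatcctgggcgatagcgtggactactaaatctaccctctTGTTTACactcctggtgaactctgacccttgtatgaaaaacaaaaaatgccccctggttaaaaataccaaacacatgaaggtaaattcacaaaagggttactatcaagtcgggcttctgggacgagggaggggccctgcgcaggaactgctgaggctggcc
Igf1r, chr7:67952007-67952256, plus strand, upstream of the annotated gene: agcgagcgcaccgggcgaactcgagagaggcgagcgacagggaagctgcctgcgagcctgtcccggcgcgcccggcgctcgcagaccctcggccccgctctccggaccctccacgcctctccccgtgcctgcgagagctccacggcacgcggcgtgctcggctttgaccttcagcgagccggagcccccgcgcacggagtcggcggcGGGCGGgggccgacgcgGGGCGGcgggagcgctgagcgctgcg
The starts of Grb10 lie 9449 bases apart and their windows differ in composition, at 54.0% and 81.2% GC, beside a median of 52.4% over the 32851 windows of all genes. The GC box core was found 5 times in the GC-rich Grb10 window and not in the other. Grb10 is imprinted, and it is known to be read from the maternal copy in most tissues and from the paternal copy in neurons, from separate starts. Gene-level counts cannot tell which start was used. The Akt1 windows held 4 GC box cores in one (78.4% GC) and 1 FoxO-type match in the other (52.0% GC), and the Igf1r window held 2 GC box cores at 77.6% GC. Of all windows, 32.7% held the GC box core and 3.17% the FoxO-type letters. The E-box CACGTG, present in 6.02% of windows, and the CARE letters TGATGNAA, present in 3.45%, were searched on both strands too and had no match in these 5 windows. A match is a description of the letters only.

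The depth of a library, as its total count over genes, ran from 8339220 to 34228180 (median 17062573), and that of a mouse, as the sum of its 3 libraries, from 47959617 to 61290435. The share of a library's total that was on no gene, averaged over the libraries of a mouse, was 48.0% to 49.1% in Control and 50.0% to 52.9% in Nav-Tsc2 mice. The share aligned to more than 1 place was 38.3% to 38.7% and 40.2% to 41.3%, and the part of these shares in the results below was not tested. Levels are given as normalized CPM, that is, counts scaled to the size of the library by the TMM method. The mouse was the replicate (n = 4 per genotype). A gene was called higher or lower when edgeR's quasi-likelihood test gave a Benjamini-Hochberg adjusted p under 0.05 over all genes tested and a log2 fold change (Nav-Tsc2 over Control) past 0.5 in either direction. Tsc2 itself was at 13.4, 24.7, 21.5 and 24.1 CPM in Control replicates 1 to 4 and at 8.70, 8.51, 7.30 and 10.9 CPM in Nav-Tsc2 replicates 1 to 4. Every Nav-Tsc2 mouse lay below every Control mouse, and Tsc2 was called lower (log2 fold change -1.24 ± 0.22 SE, adjusted p = 0.0040). In these pools, fewer cells of a type and less RNA per cell cannot be told apart.

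Among the 8 members, Grb10 and Akt1 were called higher in Nav-Tsc2 mice, Igf1r was called lower, and Insr, Irs1, Irs2, Pik3ca and Akt2 were not called. The background was 9.12% of all tested genes called higher and 8.0% called lower. By separation of the mice alone, 3 members (Grb10, Akt1 and Insr) were higher in every Nav-Tsc2 mouse than in any Control mouse, and 1 member (Igf1r) was lower in every Nav-Tsc2 mouse. Such separation was seen for 14.6% of all tested genes in the higher direction and 12.3% in the lower. The median log2 fold change was 0.11 over the 8 members and 0.01 over all tested genes. The calls of Grb10, Akt1 and Igf1r were kept in each of 17 other fits, which changed the tool, scaling, filter, covariates, weighting of libraries or the mice included.

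**Figure D1:**
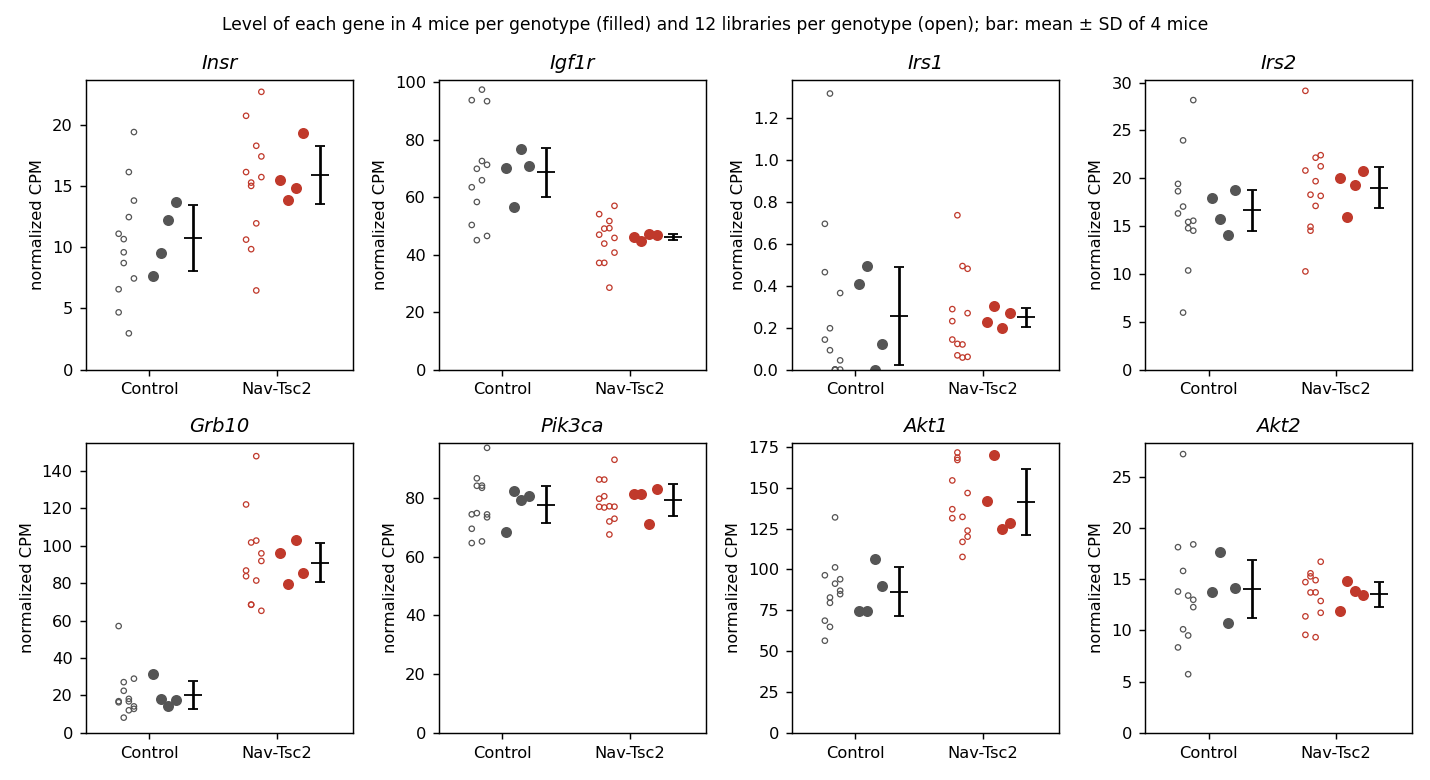
Normalized CPM (y axes, starting at 0) of the 8 genes in Control and Nav-Tsc2 mice: filled points are mice, open points are the 12 libraries of each genotype, and bars are the mean ± SD of 4 mice. Grb10 libraries of Nav-Tsc2 mice, at 65.2 to 148 CPM, all lay above the Control libraries, at 8.15 to 57.1 CPM, and Igf1r mice were lower in Nav-Tsc2.

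Igf1r encodes the receptor for IGF1 and IGF2 (chr7:67952827-68233668, plus strand, 21 merged exons). Its level was 70.3, 56.4, 76.8 and 70.8 CPM in Control replicates 1 to 4 and 46.0, 44.6, 47.3 and 46.7 CPM in Nav-Tsc2 replicates 1 to 4. The lowest Control mouse lay above the highest Nav-Tsc2 mouse, and the Nav-Tsc2 mice lay close together (46.2 ± 1.15 CPM, SD, n = 4, against 68.6 ± 8.64 CPM). The log2 fold change was -0.57 ± 0.11 (SE, adjusted p = 0.00515), a level 0.673 times that of Control. This size lies near the limit of 0.5, and over the 17 other fits it ran from -0.65 to -0.52. Individual libraries did overlap, from 45.0 to 97.4 CPM in Control and from 28.5 to 57.0 CPM in Nav-Tsc2.

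Insr encodes the insulin receptor (chr8:3122061-3279617, minus strand, 23 merged exons). It was present at 7.64, 9.56, 12.2 and 13.7 CPM in Control replicates 1 to 4 and at 15.5, 13.9, 14.9 and 19.3 CPM in Nav-Tsc2 replicates 1 to 4. The mice did not overlap, but the gap between the highest Control and the lowest Nav-Tsc2 mouse was small beside the spread within each genotype. The log2 fold change of 0.56 ± 0.21 (SE) did not pass the test (adjusted p = 0.0878). Insr was called higher in 2 of the 17 other fits, with sex as a covariate (adjusted p = 0.0405) and with 24 libraries and the mouse as a random effect (adjusted p = 0.0477), and the adjusted p ran to 0.218. The libraries of a mouse differed by an SD of 0.60 on the log2 scale, larger than the SD of 0.30 between the means of mice of a genotype.

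Irs1 and Irs2 encode the adaptors that carry the signal from the receptors to PI3K, and only Irs2 was well represented. Irs2 (chr8:10984681-11008458, minus strand, 2 merged exons) was at 17.9, 15.7, 14.1 and 18.8 CPM in Control replicates 1 to 4 and at 20.0, 16.0, 19.3 and 20.7 CPM in Nav-Tsc2 replicates 1 to 4. These values overlapped, and the log2 fold change was 0.19 ± 0.15 (SE, adjusted p = 0.402). Irs1 (chr1:82233101-82291416, minus strand) had 24, 26, 0 and 6 counts in Control replicates 1 to 4 and 11, 17, 12 and 16 counts in Nav-Tsc2 replicates 1 to 4. The 0 counts of Control replicate 3 allow a level of up to 0.0543 CPM (3 counts, for counting error only). The means were 0.255 ± 0.233 and 0.248 ± 0.0465 CPM (SD, n = 4 each), with a log2 fold change of -0.04 ± 0.99 (SE, adjusted p = 0.985), so a difference in Irs1 was not detectable at this depth. The RNA kit does not mark strand, and 30.9% of the Irs1 exon length is shared with Gm9747 on the other strand, so part of these few counts may not be Irs1.

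Grb10, the inhibitory adaptor of both receptors (chr11:11930508-12038683, minus strand, 22 merged exons), showed the largest difference of the 8 members. Its level was 31.2, 18.0, 14.6 and 17.6 CPM in Control replicates 1 to 4 and 95.9, 79.3, 102.9 and 85.6 CPM in Nav-Tsc2 replicates 1 to 4. Every Nav-Tsc2 mouse lay far above the highest Control mouse, replicate 1, which itself stood above the other Control mice. The mean rose from 20.4 ± 7.41 to 91.0 ± 10.5 CPM (SD, n = 4 each), 4.47-fold, with a log2 fold change of 2.16 ± 0.23 (SE, adjusted p = 0.000278). The separation held at the level of libraries, where none of the 12 Control libraries (8.15 to 57.1 CPM) reached the lowest of the 12 Nav-Tsc2 libraries (65.2 CPM). This separation of all libraries in the higher direction was found for 2.41% of tested genes. Of the Control counts, 27.4% came from 1 library. The log2 fold change ran from 2.02 to 2.44 over the 17 other fits.

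Pik3ca encodes the catalytic p110 alpha subunit of PI3K (chr3:32397671-32468486, plus strand, 21 merged exons) and was the steadiest of the members. It was at 68.3, 82.3, 79.4 and 80.5 CPM in Control replicates 1 to 4 and at 81.3, 81.4, 71.2 and 82.9 CPM in Nav-Tsc2 replicates 1 to 4. The genotypes overlapped, and the log2 fold change was 0.03 ± 0.09 (SE, adjusted p = 0.866). Over the 17 other fits the log2 fold change lay between -0.03 and 0.08.

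Among the Akt kinases examined here, which act downstream of PI3K, Akt1 was called higher and Akt2 was not called. The difference between them, tested as a ratio below, did not pass. Akt1, the broadly expressed isoform (chr12:112653821-112674884, minus strand, 16 merged exons), was at 74.8, 74.6, 106.2 and 89.9 CPM in Control replicates 1 to 4 and at 141.8, 170.0, 124.9 and 128.7 CPM in Nav-Tsc2 replicates 1 to 4. All Nav-Tsc2 mice lay above all Control mice, and Akt1 rose 1.64-fold (log2 fold change 0.71 ± 0.14 SE, adjusted p = 0.00731). Akt2, the isoform best known from insulin-responsive tissues (chr7:27591552-27640826, plus strand, 23 merged exons), was at 13.7, 17.6, 10.7 and 14.2 CPM in Control and at 11.9, 14.8, 13.8 and 13.5 CPM in Nav-Tsc2 replicates 1 to 4. The Nav-Tsc2 values lay within the Control range, and the log2 fold change was -0.06 ± 0.18 (SE, adjusted p = 0.861).

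Dividing each level by exon length allows the members to be ranked. The length is that of all annotated exons of a gene, merged, and not of the transcripts in use. Levels of 1 gene relative to another, here and in the ratios below, therefore depend on the annotation. In Control mice, Akt1 was highest at 21.1 CPM per kb of exon, followed by Pik3ca at 8.54, Igf1r at 4.08, Irs2 at 2.63, Grb10 at 2.24, Akt2 at 1.97, Insr at 0.784 and Irs1 at 0.0279. The range of Grb10 over mice overlapped those of Igf1r, Irs2 and Akt2, and that of Irs2 overlapped that of Akt2, so the order within ranks 3 to 6 is resolved only for Igf1r above Irs2 and Akt2. In Nav-Tsc2 mice, Akt1 stood at 34.5 CPM per kb, Grb10 at 10.0, Pik3ca at 8.72, Irs2 at 3.01, Igf1r at 2.75, Akt2 at 1.89, Insr at 1.16 and Irs1 at 0.0272. By its mean Grb10 was at rank 5 in Control and rank 2 in Nav-Tsc2 mice, where its range overlapped that of Pik3ca, and Igf1r was at rank 3 and rank 5, where its range overlapped that of Irs2. The bottom of the order, Akt2 above Insr above Irs1, was the same in both genotypes and without overlap.

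**Figure D2:**
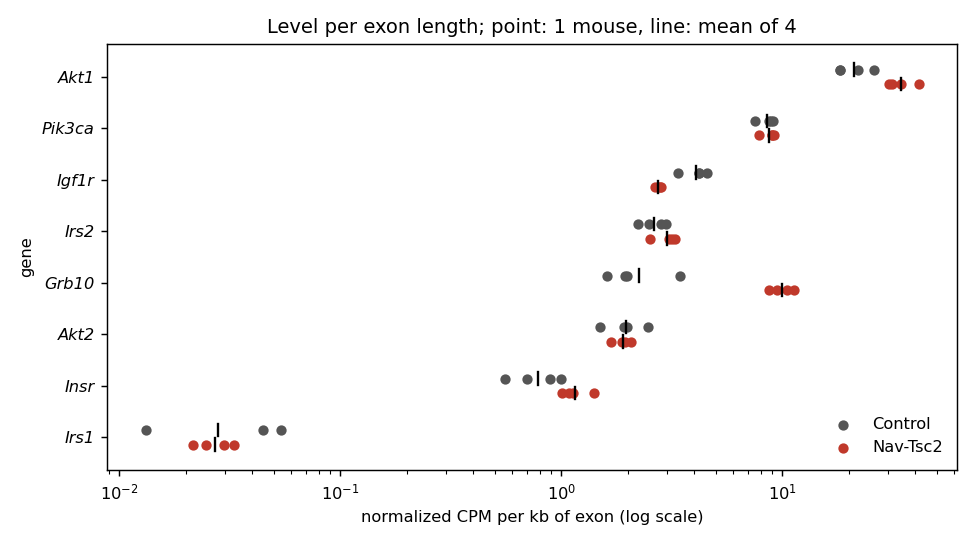
Normalized CPM per kb of exon (x axis, log scale) for each gene (y axis, in the order of the Control means); points are mice (n = 4 per genotype) and vertical lines are means. Grb10 passes from 2.24 in Control to 10.0 in Nav-Tsc2, and the Control replicate with 0 Irs1 counts is not drawn.

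Ratios of 2 genes within a mouse do not depend on the scaling of libraries. The log2 ratio of Insr to Igf1r, per kb of exon, was -2.41 ± 0.36 in Control and -1.26 ± 0.19 in Nav-Tsc2 mice (SD, n = 4 each). Insr thus stood at 0.189 times the level of Igf1r in Control and at 0.417 times in Nav-Tsc2 mice, with no overlap (difference 1.15 on the log2 scale, exact permutation test, two-sided p = 0.0286, adjusted over 3 ratios 0.0429). Insr was higher and Igf1r lower in every Nav-Tsc2 mouse, so the separation of this ratio and its p follow from those of the 2 genes. The log2 ratio of Grb10 to Insr was 1.49 ± 0.81 in Control and 3.12 ± 0.27 in Nav-Tsc2 mice, again with no overlap (difference 1.63, exact permutation p = 0.0286, adjusted 0.0429). The log2 ratio of Akt1 to Akt2 was 3.43 ± 0.52 in Control and 4.18 ± 0.20 in Nav-Tsc2 mice, the genotypes overlapped, and the difference of 0.75 did not pass the test (exact permutation p = 0.0857, adjusted 0.0857). With 4 mice per genotype the smallest p that this test allows is 0.0286, and when mice were paired by replicate number it is 0.125, the value that both separated ratios took.

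**Figure D3:**
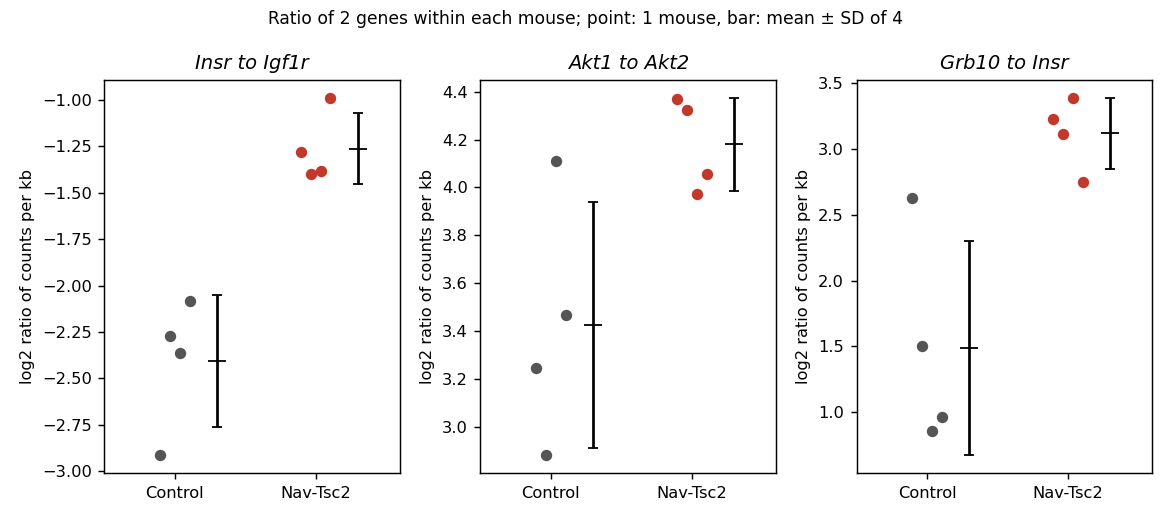
Log2 ratio of the levels per kb of exon of 2 genes within each mouse (y axes, not starting at 0), for Control and Nav-Tsc2; points are mice and bars are the mean ± SD of 4 mice. Insr to Igf1r and Grb10 to Insr are separated between genotypes, and Akt1 to Akt2 overlaps.

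Because each genotype held both sexes, the members were also compared within sex, with 2 mice against 2. Grb10 was higher in Nav-Tsc2 by a ratio of 3.56 in males and 5.86 in females, and Igf1r was lower at ratios of 0.716 and 0.637. Akt1 differed by a ratio of 2.09 in males and 1.29 in females, and Insr by 1.71 and 1.32. These 4 genes had no overlap within either sex, in the same direction in both, as was the case for 17.8% of all tested genes in the higher direction and 15.2% in the lower. For these 4 genes this follows from their separation over all mice, so it is not a further result. No member passed edgeR's test of a genotype by sex interaction at an adjusted p under 0.05 (0 of 8), and 1 member, Akt1, had an unadjusted p under 0.05 (interaction 0.69 on the log2 scale, p = 0.00605, adjusted p = 0.311). Over all genes, 1 of 17178 passed, so the 0 of 8 says little about the members. DESeq2 gave 0 calls of members (371 of 18275 genes) and 1 member at an unadjusted p under 0.05, and edgeR without a low-count filter gave 0 (618 of 30194 genes) and 2. Irs1, at its low counts, was lower in Nav-Tsc2 males (0.450 to 0.263 CPM) and higher in Nav-Tsc2 females (0.0602 to 0.233 CPM), without overlap in either sex, and that interaction did not pass the test (adjusted p = 0.724).

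The 24 libraries also show which genes varied alongside the called members from pool to pool, after removing the mean of each genotype. Over 8444 genes of at least 10 CPM on average, those with the highest Pearson r to Igf1r were Fam76a (0.799), Rbm7 (0.791) and Ptprt (0.787), and the lowest was Tomm5 (-0.837). For Akt1 they were Pacsin1 (0.808), Mtch1 (0.799) and Klc4 (0.772), with Bcap31 lowest (-0.887). For Grb10 they were March7 (0.730), Xpnpep1 (0.725) and Cacna2d1 (0.700), with Lix1 lowest (-0.786). The summed level of 4 Nav1.8 nociceptor markers (Scn10a, Scn11a, Trpv1 and P2rx3) had an r of 0.753 with Igf1r, 0.735 with Akt1, 0.637 with Insr and -0.138 with Grb10. Over all 12 marker lists, the lowest values for Igf1r were with fibroblasts (-0.665), myelinated neurons (-0.645) and all sensory neurons (-0.588). For Akt1 they were with myelinated neurons (-0.517) and all sensory neurons (-0.416), for Insr with fibroblasts (-0.587) and endothelial cells (-0.553), and for Grb10 with nonpeptidergic nociceptors (-0.495). A summed level follows mainly its most abundant genes, Dcn for fibroblasts and Tubb3 and Snap25 for all sensory neurons. An r with such a sum is therefore not a measure of the share of that cell type. The 3 pools of a mouse share that mouse and each pool has its own depth, so these r values describe the 24 libraries and are not 24 independent observations.

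The wider pathway was followed with a list of 97 genes in 9 roles, the 8 members included, of which 83 were tested. In it 13 genes were called higher, 8 were called lower and 62 were not called, with a median log2 fold change of 0.14. Over the other fits, those called higher ran from 9 (without Nav-Tsc2 replicate 1) to 23 (24 libraries, with 8 lower). Those called lower ran from 5 (without Nav-Tsc2 replicate 2) to 11 (DESeq2, with 20 higher). Over all genes, calls in either direction were 2941 of 17178 in the reported fit, 3460 of 13880 with 24 libraries and 4182 of 21289 with DESeq2. Without the members, 11 of 75 tested genes (14.7%) were called higher and 7 (9.33%) lower, beside 9.12% and 8.0% of all genes. Without the FoxO-regulated genes as well, 7 of 60 (11.7%) were called higher and 6 (10.0%) lower.

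**Figure D4:**
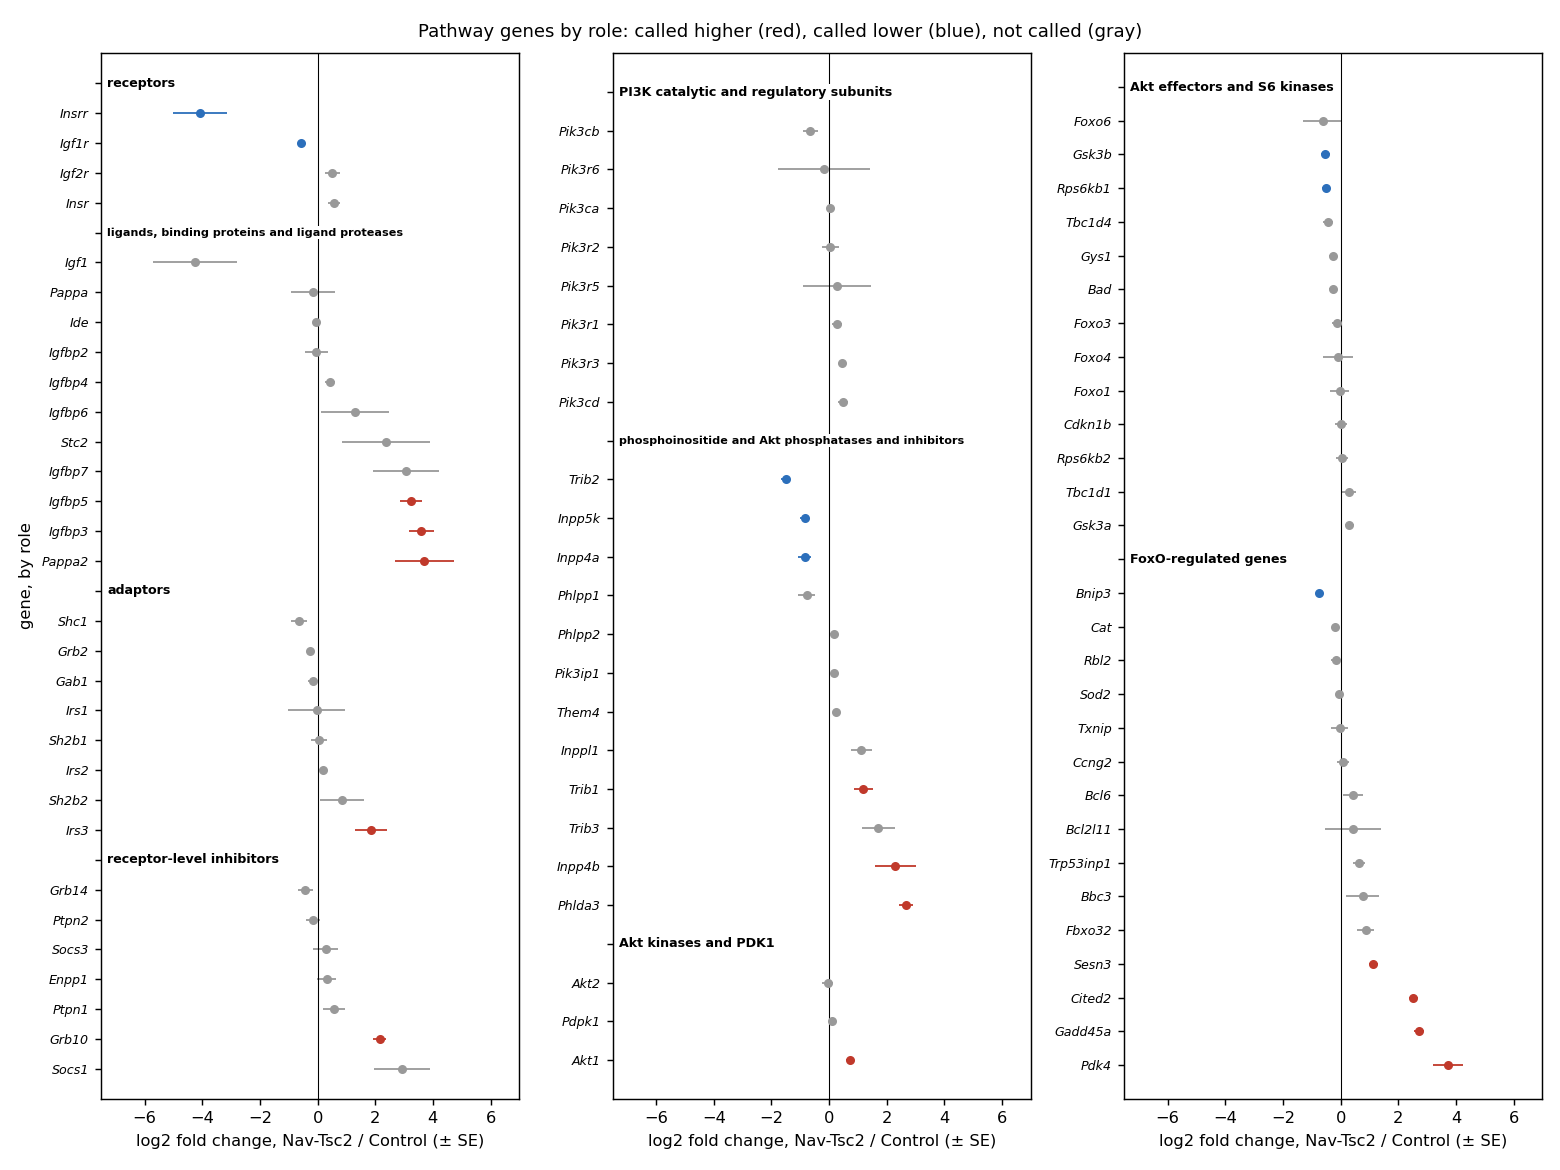
Log2 fold change (x axes, Nav-Tsc2 over Control, ± SE) of most of the tested pathway genes (y axes), grouped by role; red genes were called higher, blue lower, gray not called. The largest rises among called genes are those of Pdk4 (3.73), Pappa2 (3.70), Igfbp3 (3.60) and Igfbp5 (3.25), and the largest fall is that of Insrr (-4.08).

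Among ligands, binding proteins and ligand proteases, 11 of 16 genes were tested. By edgeR, 3 (27.3%) were called higher and 0 lower, beside 9.12% and 8.0% of all tested genes. At an unadjusted p under 0.05, 5 were higher and 1 lower, and DESeq2 called 4 higher and 1 lower. Igfbp3, a binding protein that carries IGFs outside the cell, was at 4.65 ± 2.22 CPM in Control and 56.1 ± 12.9 CPM in Nav-Tsc2 mice (SD, n = 4 each), from 1.34 to 5.94 CPM against 36.9 to 63.5 CPM (log2 fold change 3.60 ± 0.43 SE, adjusted p = 0.000500). Igfbp5, another binding protein, rose from 7.32 ± 1.93 to 69.9 ± 32.6 CPM (log2 fold change 3.25 ± 0.38 SE, adjusted p = 0.000448). Pappa2, a protease that cleaves IGF binding proteins, was at 0.420 ± 0.620 and 5.48 ± 3.53 CPM (log2 fold change 3.70 ± 1.02 SE, adjusted p = 0.0302), 74.4% of its Control counts came from 1 library, and its call was lost in 5 of 17 other fits. Igf1 was at 3.42 ± 3.74 CPM in Control and 0.174 ± 0.196 CPM in Nav-Tsc2 mice. The Igf1 mice overlapped, 60.5% of the Control counts came from 1 library, and the log2 fold change of -4.25 ± 1.45 (SE) did not pass the test (adjusted p = 0.0650). Igf2 had too few counts to be tested.

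Of the 4 receptors, Igf1r and Insrr were called lower and Insr and Igf2r were not called. Insrr, the insulin receptor-related receptor, which senses alkaline pH and binds neither insulin nor IGF, ranged from 0.823 to 11.8 CPM in Control and from 0.0490 to 0.796 CPM in Nav-Tsc2 mice (log2 fold change -4.08 ± 0.95 SE, adjusted p = 0.0146). With the replicate number as a block the adjusted p of Insrr was 0.0537, and the call was also lost without Nav-Tsc2 replicate 1. Among 8 tested adaptors only Irs3, an IRS family member known from rodents, was called higher (0.700 ± 0.530 to 2.51 ± 0.665 CPM, log2 fold change 1.84 ± 0.56 SE, adjusted p = 0.0436). That call was lost in 10 of the 17 other fits, with an adjusted p of 0.0699 under the block. Of 7 tested receptor-level inhibitors, Grb10 was the only gene called by edgeR, while 2 were higher at an unadjusted p under 0.05 and DESeq2 called 3 of the role higher. Of 8 tested PI3K subunits 0 were called by edgeR, while 3 had an unadjusted p under 0.05 (2 higher, 1 lower) and DESeq2 called 1 lower. The smallest p among them was that of Pik3r3, a regulatory subunit, at 28.9 ± 3.81 CPM in Control and 39.6 ± 4.10 CPM in Nav-Tsc2 mice (SD, n = 4 each). Its log2 fold change of 0.45 ± 0.13 (SE, adjusted p = 0.0344) lay under the limit. Pik3r1, the most abundant regulatory subunit by CPM in these libraries, had a log2 fold change of 0.27 ± 0.17 (SE, adjusted p = 0.291).

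The genes listed as phosphoinositide and Akt phosphatases and inhibitors were called in both directions, 3 higher and 3 lower of 13 tested (23.1% each). Over all tested genes the shares were 9.12% and 8.0%. The role is a label of the list, and whether each gene acts against Akt in these cells was not tested. Phlda3, which competes with Akt for the membrane lipid, rose from 2.35 ± 0.573 to 15.0 ± 2.20 CPM (SD, n = 4 each; log2 fold change 2.67 ± 0.24 SE, adjusted p = 0.000115). Trib2, a pseudokinase that binds Akt, fell from 101.5 ± 9.44 to 35.8 ± 7.42 CPM (log2 fold change -1.50 ± 0.15 SE, adjusted p = 0.000213), while its relative Trib1 was called higher (log2 fold change 1.19 ± 0.34 SE, adjusted p = 0.0325). The phosphoinositide phosphatases Inpp5k (log2 fold change -0.85 ± 0.15 SE, adjusted p = 0.00413) and Inpp4a (-0.85 ± 0.23, adjusted p = 0.0277) were called lower. Inpp4b was called higher at a low level (0.348 to 1.71 CPM, log2 fold change 2.29 ± 0.72 SE, adjusted p = 0.0484). The calls of Trib1 (adjusted p = 0.0674) and Inpp4b (adjusted p = 0.130) were lost under the replicate block, and in 7 of 17 and 10 of 16 other fits in all. The call of Inpp4a was lost in 4 of 17.

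Downstream of Akt, 2 of 13 tested effectors and S6 kinases (15.4%) were called lower and 0 higher by edgeR, beside 8.0% and 9.12% of all tested genes. In this role 0 were higher at an unadjusted p under 0.05 and 0 by DESeq2. Gsk3b, a kinase that Akt inhibits, was at 3389 ± 672 CPM in Control and 2338 ± 329 CPM in Nav-Tsc2 mice (SD, n = 4 each; log2 fold change -0.54 ± 0.15 SE, adjusted p = 0.0329). Its mice overlapped, its call was lost in 6 of 17 other fits, and its adjusted p was 0.0504 under the block. Rps6kb1, which encodes the S6 kinase that mTORC1 activates, was at 73.6 ± 5.93 and 51.6 ± 7.84 CPM (log2 fold change -0.51 ± 0.12 SE, adjusted p = 0.0180) and lost its call in 4 of 17 fits. The FoxO factors Foxo1 (log2 fold change -0.04 ± 0.34 SE, adjusted p = 0.959) and Foxo3 (-0.13 ± 0.16, adjusted p = 0.623) were not called.

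Of 19 genes known to be regulated by FoxO factors, 15 were tested, and 4 (26.7%) were called higher and 1 (6.67%) lower. Over all tested genes these shares were 9.12% and 8.0%. The median log2 fold change was 0.44 in the list and 0.01 over all tested genes. The 4 genes of the list called higher are not FoxO targets alone. Gadd45a, a stress-response gene also controlled by p53, rose from 23.6 ± 3.65 to 154.1 ± 29.8 CPM (SD, n = 4 each; log2 fold change 2.71 ± 0.17 SE, adjusted p = 2.24e-05). Cited2, a transcriptional coregulator, rose from 4.34 ± 0.568 to 25.0 ± 2.71 CPM (log2 fold change 2.52 ± 0.16 SE, adjusted p = 2.48e-05). Sesn3, a sestrin that restrains mTORC1, rose from 24.5 ± 5.38 to 53.8 ± 5.07 CPM (log2 fold change 1.13 ± 0.17 SE, adjusted p = 0.00148). Pdk4, which shuts pyruvate out of the mitochondrial oxidation path, rose from 0.614 ± 0.223 to 8.16 ± 4.71 CPM (log2 fold change 3.73 ± 0.51 SE, adjusted p = 0.00102). Bnip3, a mitophagy receptor, was called lower (261.2 ± 19.8 to 155.2 ± 12.6 CPM, log2 fold change -0.75 ± 0.09 SE, adjusted p = 0.000498). Of the exon length, 22.2% in Bnip3 and 19.1% in Gadd45a is shared with another gene. The other 10 tested genes of the list were not called by edgeR. Among them, Cat, Sod2 and Txnip were called in none of the other fits. Fbxo32 (log2 fold change 0.86 ± 0.30 SE, adjusted p = 0.0708) and Trp53inp1 (0.63 ± 0.21, adjusted p = 0.0606) were called higher by DESeq2. In the whole list, 6 genes were higher and 1 lower at an unadjusted p under 0.05, and DESeq2 called 6 higher and 1 lower.

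**Figure D5:**
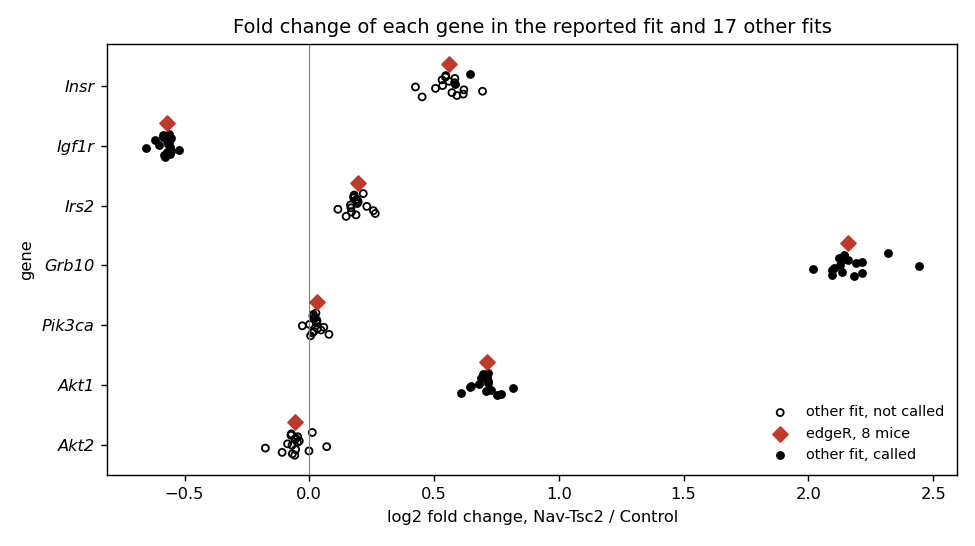
Log2 fold change (x axis) of 7 members (y axis) in the reported edgeR fit (diamond) and 17 other fits (circles, filled where the gene was called); Irs1 is left out because of its low counts. Grb10, Akt1 and Igf1r are filled throughout, Insr in 2 of 17 fits, and Irs2, Pik3ca and Akt2 in none.

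Summed mRNA levels of several cell type marker lists differed between genotypes. Such sums cannot tell a change in the cells of a pool from a change in RNA per cell. The summed level of 4 peptidergic nociceptor markers was 7139 to 17120 CPM in Control and 2705 to 5240 CPM in Nav-Tsc2 mice, and 2 of the 4, Calca among them, were called lower. The sum of 4 nonpeptidergic nociceptor markers was 79.5 to 642.5 CPM in Control and 730.4 to 827.6 CPM in Nav-Tsc2 mice. Of the 4, 0 were called by edgeR or by DESeq2 as run here, and 1, Mrgprd, was higher at an unadjusted p under 0.05 (adjusted p = 0.0935 in edgeR). Mrgprd was called higher in the fit of 24 libraries, with sex as a covariate and without Control replicate 3. Gfra2 was called higher in the first and last of these fits. The study's own DESeq2 analysis listed Mrgprd as higher. The sum of 6 myelinated neuron markers was 1367 to 2075 against 796 to 1001 CPM. Of these, 2 were called lower, Cntn1 (475 to 76 CPM on average) and Ldhb (403 to 231 CPM). Nefh, Ntrk2, Ntrk3 and Pvalb overlapped between genotypes and were not called, and the mean of Pvalb was higher (1.08 to 5.54 CPM). The sum of the 4 Nav1.8 nociceptor markers overlapped, at 1185 to 1696 against 1323 to 1490 CPM, as did that of 6 markers of all sensory neurons. Of those 6, Snap25 (log2 fold change -1.10), Rbfox3 (-0.83) and Isl1 (-0.80) were called lower and Prph (0.72) higher. For 12 glial markers the sums were 2992 to 3122 against 1972 to 2560 CPM, but this rested on S100b, the only one called (lower, 939 to 98.6 CPM on average). Without S100b the other 11 summed to 1880 to 2362 CPM in Control and 1944 to 2372 CPM in Nav-Tsc2 mice, and overlapped. For 8 macrophage markers they were 1.77 to 7.73 against 7.90 to 19.4 CPM, where Cx3cr1 was called higher while Adgre1, Ptprc and C1qa had too few counts to be tested. For 9 endothelial markers they overlapped, at 6.46 to 15.2 against 11.7 to 24.6 CPM, where Flt1, Kdr and Ly6c1 were called higher while Pecam1, Cdh5, Cldn5 and Emcn had too few counts. Red blood cell markers summed to 1.18 to 1.66 CPM in Control and 0.144 to 0.389 CPM in Nav-Tsc2 mice, with Hbb-bt at 0 in all mice, and fibroblast, pericyte and low-threshold C fiber sums overlapped. Within the overlapping lists, 2 of 4 pericyte markers were called higher, Acta2 (0.131 to 7.25 CPM) and Pdgfrb (6.89 to 14.8 CPM), and so was Th (99.4 to 865 CPM), 1 of 2 tested low-threshold C fiber markers. The part of these differences in the changes of Grb10, Akt1 and Igf1r was not tested.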

How the data were processed

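RNA of GFP-positive L4 DRG cells was sequenced in 24 libraries. The authors used STAR for alignment to mm10 and HTSeq for counts, and they deposited raw counts per gene and library, without normalization or molecular identifiers. Versions and the strand setting of the counting are not given in the sources used here. A DESeq2 table of the authors, with their fold changes, p-values and normalized values, was not used. Between 47.6% and 55.9% of the totals in the count files were on no gene and were left out of library sizes.

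Counts were summed over the 3 libraries of each mouse. edgeR 4.0.16 (R 4.3.3; filterByExpr, TMM scaling, quasi-likelihood F-test, Benjamini-Hochberg over 17178 genes) compared 4 Control with 4 Nav-Tsc2 mice, with the study's thresholds (adjusted p under 0.05, log2 fold change past 0.5). The SE was taken from the size of the log2 fold change over the root of its F value. Alternatives were DESeq2 1.42.0, limma 3.58.1 on 24 libraries, other scaling, no filter, equal weight for libraries, a replicate block, a sex term and leaving out each mouse. Leaving out the smallest library was added after seeing the data. Scripts were tested on simulated counts. Ratios were tested by exact permutation (SciPy 1.17.1). A planned ratio of Irs2 to Irs1 could not be computed because 1 mouse had 0 Irs1 counts, so p-values were adjusted over 3 ratios.

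The members and lists were chosen with earlier results of these data known. Genes were named by a rule: every member, Tsc2, each called pathway gene, the gene with the smallest p in a role with no call, Foxo1, Foxo3, Pik3r1, Igf1, Igf2 and a few others whatever their values, and the genes most like each called member. A few of the genes so chosen are not reported here. Marker genes, Cat, Sod2, Txnip, Fbxo32, Trp53inp1 and Igf2r fall outside this rule and were named after their values were seen. To check whether equal replicate numbers pair the mice, deviations from the genotype mean were correlated over 8445 genes (genes are not independent replicates). Equal numbers had an r of 0.207, 0.204, 0.128 and 0.220, all above the limit of 0.1, other pairs of a shared sex had 0.0836 to 0.220, and pairs of opposite sex had -0.269 to -0.101, so numbers and sex cannot be told apart. Symbols and exon lengths came from the GRCm38 annotation (47224 of 47643 identifiers matched).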

Additional observations from a re-analysis of the deposited data

Results flagged for a closer look

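In 24 groups of 4 mice (the members, Tsc2 and the 3 ratios in each genotype), 1 value stood far from the others by Dixon's criterion. Pik3ca was at 71.2 CPM in Nav-Tsc2 replicate 3, and the other Nav-Tsc2 mice lay between 81.3 and 82.9 CPM. The value of 71.2 CPM lies within the Control range of 68.3 to 82.3 CPM. Chance marks about 1 in 20 groups, so 1 of 24 is near what chance gives.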

How the results depend on the processing

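Tsc2, Grb10, Akt1 and Igf1r kept their direction and call in each of 17 other fits, and the replicate block changed no call of a member. Insr passed the threshold in 2 of them, at a log2 fold change of 0.64 with 24 libraries and 0.58 with sex as a covariate. With a log2 limit of 1 in place of 0.5, members called lower fell to 0 and members called higher to 1 (Grb10). Pathway genes called lower fell to 2 and those called higher to 12 at that limit. Pathway genes called lower numbered 8, and between 5 (without Nav-Tsc2 replicate 2) and 9 when each mouse was left out. They were 11 with DESeq2, 10 at an adjusted p under 0.1 and 6 under the replicate block. Pathway genes called higher were 23 in the limma fit of 24 libraries, 20 with DESeq2 and 20 at an adjusted p under 0.1, against 13. They were 10 under the replicate block, and between 9 (without Nav-Tsc2 replicate 1) and 16 (without Control replicate 3) when each mouse was left out. Under the replicate block, the differences in the Insr to Igf1r and Grb10 to Insr ratios were 1.15 and 1.63 with an exact p of 0.125, the smallest that 4 pairs allow. Leaving out each mouse, they ranged from 0.98 to 1.25 and from 1.42 to 2.01, with an exact p of 0.0571, the smallest that 3 mice against 4 allow. Over all genes, the median log2 fold change lay between -0.02 and 0.09 in the other fits. Depth limits Irs1 and other genes with few counts.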
